A study of Mus musculus with 14 samples.

Results

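The Siglec receptors of microglia were followed through a month of CD22 blockade in the aged mouse brain. The group holds 7 genes, taken by name from 24394 named genes of the deposited table: Cd22, the target of the infused antibody, and Cd33, Siglech, Siglece, Siglec1, Siglecf and Siglecg. Each of the 7 had a mean of at least 10 normalized counts and entered the test, which covered 11646 genes. A normalized count is the number of reads of a gene divided by a size factor for the library, so that libraries of different depth can be compared.

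C57BL/6 mice aged 18 months carried osmotic pumps that delivered either a blocking antibody against CD22 or a control IgG antibody into the cerebrospinal fluid for 1 month. Microglia, the resident macrophages of the brain, were sorted as living CD11b+CD45lo cells, about 20000 per sample, from the hemibrain opposite the cannula. Each group held 7 libraries, called by group and number below. Sex, the clone of the antibody and whether every library is its own mouse are not stated in the labels, so the p-values speak for the spread among these samples, which may be technical.

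Siglecs are membrane proteins that bind sialic acid, the sugar that caps many glycans on a cell's own surface. Most carry an immunoreceptor tyrosine-based inhibitory motif (ITIM) in the cytoplasmic tail, which recruits phosphatases such as SHP-1 when phosphorylated and dampens activating signals. Others, such as Siglech, have a short tail and signal through the adaptor Dap12, encoded by Tyrobp. CD22 is best known as a B cell receptor for sialic acid linked by the bond that St6gal1 makes, and CD33 as a receptor whose human gene is tied to Alzheimer's disease risk.

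The coding sequences show which members carry the inhibitory motif, and they are printed because this divides the family by role. In the transcript with the longest coding sequence of each gene (GENCODE vM21, GRCm38), the tail was taken as the residues after the most hydrophobic window of 20 residues. An ITIM was searched as serine, isoleucine, valine or leucine, any residue, tyrosine, any 2 residues, then isoleucine, leucine or valine. A total of 10 sites was found in 4 members, with 4 in Cd22, 3 in Siglecg, 2 in Siglecf and 1 in Siglece. The pattern was not matched in the tails of Cd33, Siglech and Siglec1, of 135, 47 and 36 residues. The lines below give the coding strand with the tyrosine codon in capitals, for the 4 sites of Cd22 and for 1 site of each of the other carriers.

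Cd22, tyrosine 783, exon 12 of 14, chr7:30867494-30867511, minus strand: gttagtTATgccatcttg
Cd22, tyrosine 817, exon 13 of 14, chr7:30867033-30867050, minus strand: gtcactTACtcggtgata
Cd22, tyrosine 843, exon 14 of 14, chr7:30866600-30866617, minus strand: atccatTACtcagagctg
Cd22, tyrosine 863, exon 14 of 14, chr7:30866540-30866557, minus strand: gtagacTATgtgaccctc
Siglece, tyrosine 432, exon 7 of 7, chr7:43651585-43651602, minus strand: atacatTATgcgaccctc
Siglecf, tyrosine 538, exon 10 of 10, chr7:43358670-43358687, plus strand: ctccacTATgcctccctc
Siglecg, tyrosine 659, exon 12 of 12, chr7:43417979-43417996, plus strand: ctccacTATgctgctctc

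Of the 7 genes 6 lie on chromosome 7. Siglecf (43351341 to 43359531), Siglecg (43408204 to 43418358), Cd33 (43524216 to 43544428) and Siglece (43651070 to 43660161) are close together there, with Cd22 (30865402 to 30880342) and Siglech (55768178 to 55778925) to either side. Siglec1 is on chromosome 2 (131069220 to 131086765).

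Depth overlapped between the groups, reaching higher with anti-CD22, and the cells carried a microglial profile. The 13 libraries used as reads, all but anti-CD22 replicate 3, held 20221836 to 34505735 of them with IgG and 25505008 to 38101421 with anti-CD22. Normalized totals ranged from 27357939 to 29197481 over all 14 libraries. The 10 microglia markers, among them P2ry12 and Tmem119, summed to between 1895280 and 2253230 normalized counts in the IgG libraries and between 1992540 and 2162370 with anti-CD22. Of the B cell markers, Ms4a1, Pax5 and Pou2af1 were at 0 in all 14 libraries, while Cd79b and Bank1 averaged 1351 and 1624 normalized counts. Neutrophil markers summed to 41182 in IgG replicate 1 and to no more than 11816 in any other library. These libraries also differed in a length trend: within a library, the level of each gene relative to its mean over all libraries was correlated with the length of its longest transcript. Spearman's rho across genes, which are not independent replicates, ran from -0.259 to -0.00291 for IgG. With anti-CD22 it ran from -0.269 to 0.327, where replicates 1, 2 and 3 had 0.310, 0.286 and 0.327. The same 3 libraries stood apart in the correlation with GC content, with a rho of -0.308, -0.403 and -0.360, against -0.0223 to 0.278 in the other 11.

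Levels of the 7 genes were ordered per length of the longest transcript, since longer transcripts give more reads. Siglech was the highest by far, at 13424 ± 1631 normalized counts per kb with IgG (SD, n = 7) and 13423 ± 488 with anti-CD22 (SD, n = 7). It made up from 66.4% to 73.5% of the family's summed level per kb in single libraries. With the transcript of the longest coding sequence its share was 73.6% to 79.3%. Siglece, the main ITIM receptor in the set by level, followed at 2969 ± 177 per kb with IgG and 3127 ± 149 with anti-CD22 (SD, n = 7 each). Cd33 came next at 1637 ± 81.4 and 1848 ± 139 per kb (SD, n = 7 each).

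Lower in the order stood the antibody's target. Siglecf, known from eosinophils, had 626 ± 88.1 and 666 ± 44.9 normalized counts per kb, and Cd22 had 370 ± 70.3 and 373 ± 46.3 (IgG and anti-CD22, SD, n = 7 each). Cd22 thus made up from 1.46% to 2.53% of the family's level per kb. With the transcript of the longest coding sequence its share was lower, 0.727% to 1.29%. Siglecg, which like CD22 restrains B cell receptor signals, had 38.9 ± 8.84 and 33.3 ± 8.11 per kb, and Siglec1, a sialic acid receptor of border and tissue macrophages, 5.22 ± 3.73 and 7.08 ± 7.36 (SD, n = 7 each). Each gene exceeded the next in the order in 14 of 14 libraries, with ratios of the means from 1.74 to 10.3, so neighbours did not overlap within a library. The place of Cd33 rests on its length: with the transcript of the longest coding sequence (1962 bases in place of 5728) it moved to second place, 1.67 times the level of Siglece in the mean and above it in 14 of 14 libraries. The longest Siglecg transcript retains an intron. With the transcript of the longest coding sequence Siglecg kept its place, at 60.5 per kb with IgG and 51.7 with anti-CD22.

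**Figure D1:**
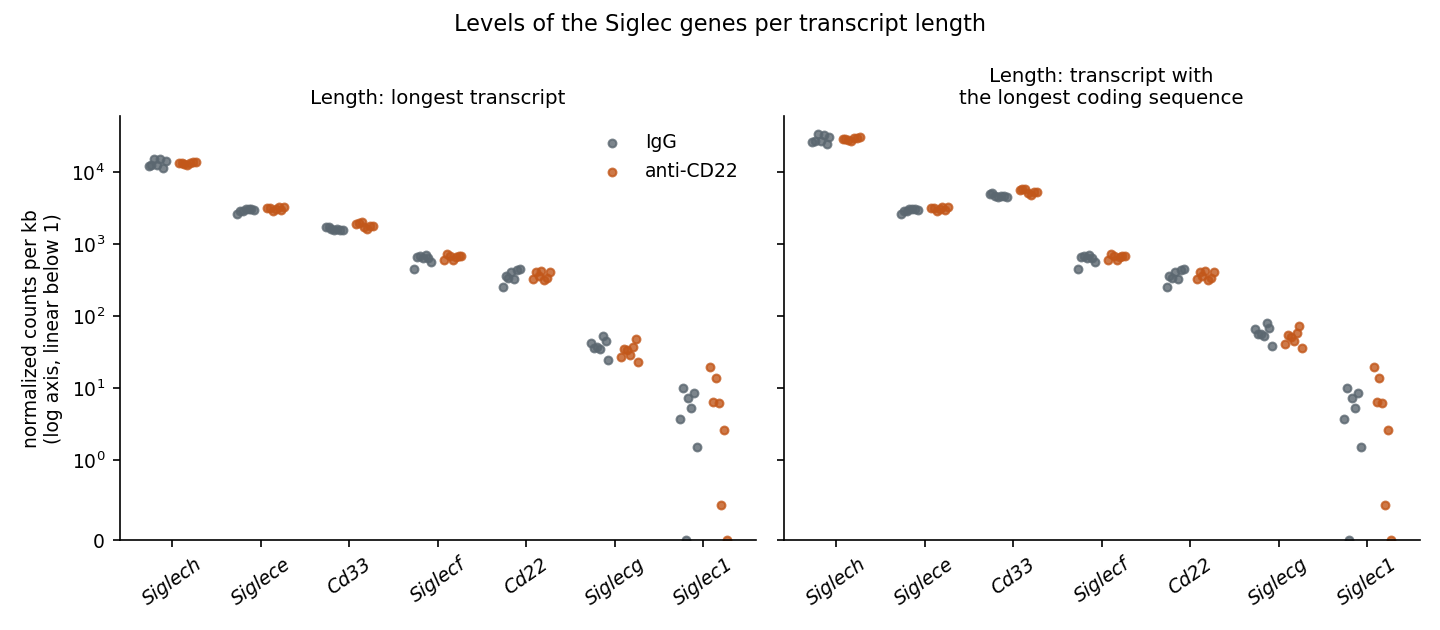
Normalized counts per kb of transcript (log axis, linear below 1) for the 7 Siglec genes, 1 point per library, with IgG in grey and anti-CD22 in orange. On the left the longest transcript sets the length and on the right the transcript with the longest coding sequence; Siglech is highest and Siglec1 lowest on both sides, while Cd33 and Siglece change places.

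The question of the comparison was whether blocking CD22 for a month shifted the RNA of CD22 itself or of related receptors. None of the 7 genes passed limma's test over all genes at a Benjamini-Hochberg adjusted p under 0.05, where 0.00859% of genes tested were called. Values entered it as log2 after adding 1 to the normalized count. At an unadjusted p under 0.05 there was 1 of 7, Cd33, against 12.8% of all genes tested. The groups overlapped for each of the 7 genes, as they did for all but 0.258% of genes tested. Of the 7 log2 fold changes 5 were above 0 and 2 below, with a median of 0.03, beside a median of 0.00 and 5851 of 11646 above 0 for all genes tested. In bulk RNA, fewer cells of a type and less RNA per cell cannot be told apart.

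**Figure D2:**
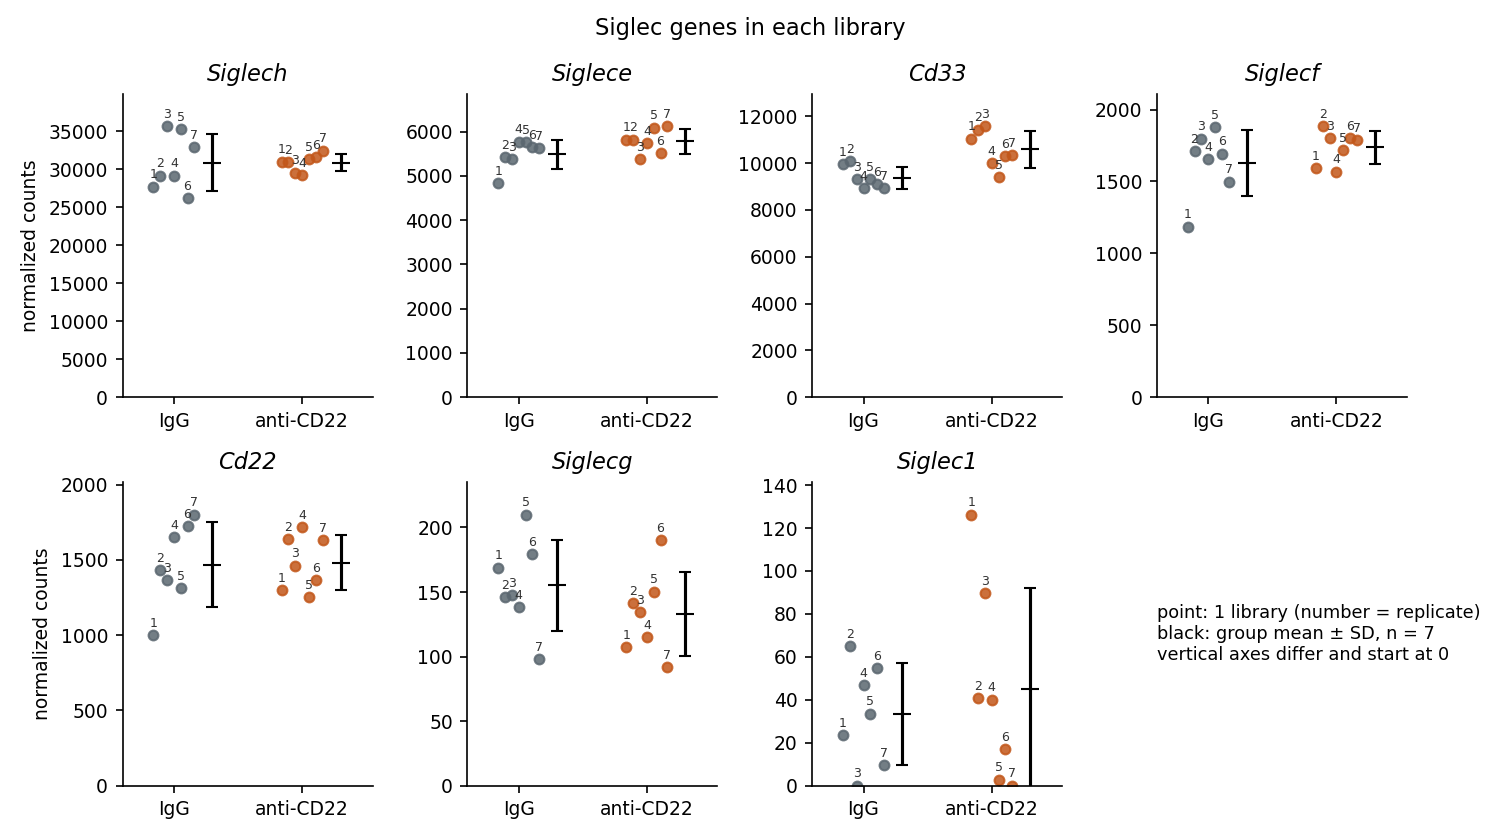
Normalized counts of each Siglec gene in each library, numbered by replicate, with the group mean ± SD (n = 7) in black; vertical axes start at 0 and differ between genes, and the lower SD bar of Siglec1 with anti-CD22 is cut at 0. The groups overlap for every gene, the anti-CD22 libraries of Cd33 sit between 9405 and 11582 against 8927 to 10086 for IgG, and IgG replicate 1 is lowest for Cd22, Siglece and Siglecf.

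The target came first. Cd22 ran from 998 over a median of 1433 to 1802 normalized counts with IgG, and from 1252 over 1462 to 1716 with anti-CD22. All 7 anti-CD22 libraries lay inside the IgG range, which reached further on both sides, with IgG replicate 1 below them and IgG replicates 6 and 7 above. The log2 fold change was 0.03 (SE 0.12, adjusted p = 0.946), and the 95% interval of the fold ran from 0.859 to 1.21. Reads of Cd22 numbered from 1100 to 1861 per library, where counting alone would give a coefficient of variation of 2.59%, while the libraries varied by 19.0% with IgG and 12.4% with anti-CD22. Without IgG replicate 1, in which neutrophil markers were highest, the log2 fold change was -0.06 (adjusted p = 0.821); the part of those markers in it was not tested.

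Among the other ITIM carriers, the differences were small. Siglece, an inhibitory receptor of myeloid cells, ran from 4831 over a median of 5622 to 5770 normalized counts with IgG and from 5374 over 5815 to 6125 with anti-CD22. The anti-CD22 libraries reached higher, 4 of 7 lying above every IgG library, and IgG replicate 1 lay below all others. Its log2 fold change was 0.08 (SE 0.05, adjusted p = 0.557), or 0.05 without IgG replicate 1. With the length and GC trend removed by the longest transcript it was 0.15 (limma adjusted p = 0.431). The unadjusted p was then 0.0112 for Siglece and 0.904 for Cd33, with 1002 of 11224 genes under 0.05. By the transcript with the longest coding sequence the unadjusted limma p was 0.0166 for Siglece and 0.000790 for Cd33.

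Siglecf ran from 1185 over a median of 1694 to 1877 normalized counts with IgG and from 1568 over 1789 to 1886 with anti-CD22. The upper ends nearly met, and IgG replicates 1 and 7 were the 2 libraries under the anti-CD22 range. The log2 fold change was 0.10 (SE 0.09, adjusted p = 0.659), and 0.03 (adjusted p = 0.904) without IgG replicate 1. Eosinophil markers gave little beside it: Prg2 and Ear6 were at 0 in all 14 libraries, Epx was above 0 in 1, Ccr3 averaged 56.6 normalized counts, and the 6 markers summed to between 26.9 and 140 normalized counts in a library.

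Siglecg ran from 98.0 over a median of 147 to 210 normalized counts with IgG and from 92.0 over 134 to 190 with anti-CD22. Most anti-CD22 libraries were in the lower part of the IgG range, with 2 of 7 above the IgG median and replicate 7 below all IgG libraries. It had the lowest log2 fold change of the ITIM carriers, -0.23 (SE 0.20, adjusted p = 0.658), with a 95% interval of the fold from 0.639 to 1.15. It was -0.14 without anti-CD22 replicate 7 and -0.15 without IgG replicate 5. The estimates of the 4 members with the motif thus did not share a direction.

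**Figure D3:**
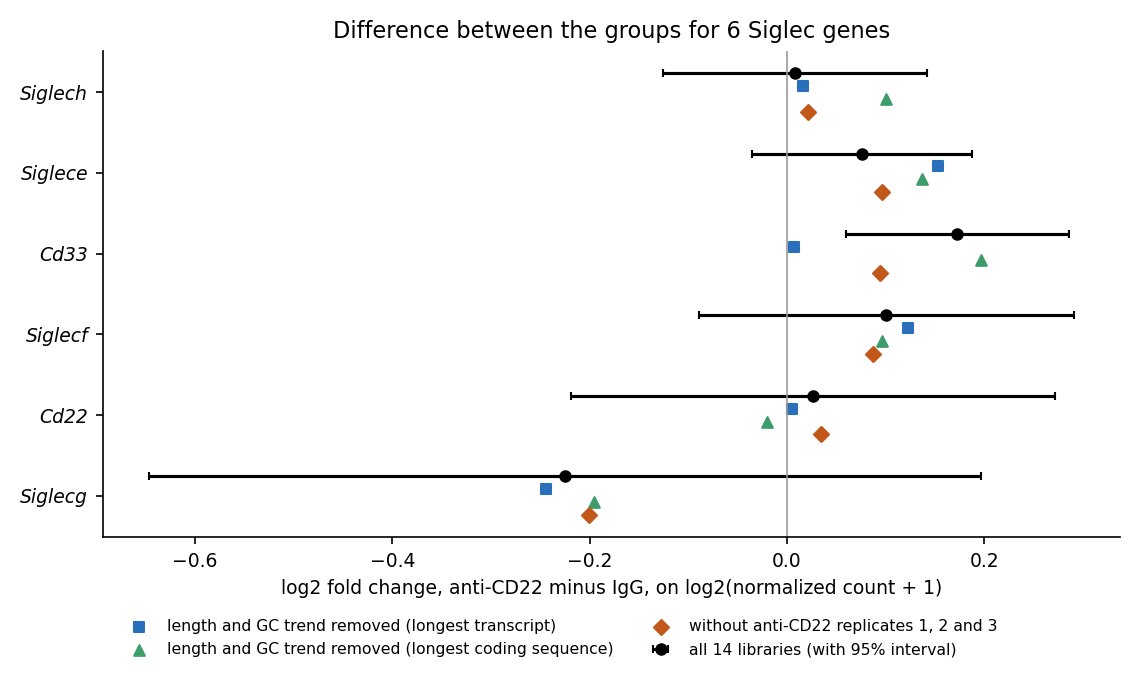
Log2 fold change (anti-CD22 minus IgG, on log2 of the normalized count plus 1) of 6 Siglec genes, with the 95% interval of the fit to all 14 libraries in black and the estimates under 3 other settings in colour; Siglec1, whose interval runs from -2.22 to 2.14, is left out. Cd33 has the interval that lies wholly above 0, and its estimate moves from 0.17 to 0.01 when the length and GC trends are removed with the longest transcript and to 0.20 with the transcript of the longest coding sequence.

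Of the members without a matched ITIM, Cd33 differed most steadily between the groups. It ran from 8927 over a median of 9315 to 10086 normalized counts with IgG and from 9405 over 10339 to 11582 with anti-CD22. The IgG median was exceeded in 7 of 7 anti-CD22 libraries, 5 of 7 lay above every IgG library, and 5 IgG libraries lay below every anti-CD22 library. The means were 9378 ± 466 and 10583 ± 794 (SD, n = 7 each), a fold of 1.13 with a 95% interval from 1.04 to 1.22. By limma the unadjusted p was 0.00481 and the adjusted p 0.238, so the difference did not pass over all genes. On the reads of 13 libraries, without anti-CD22 replicate 3, DESeq2 gave Cd33 an adjusted p of 0.192, with 0.41% of its genes called. The library left out had the highest Cd33, 11582 normalized counts.

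The level of Cd33 was compared with the length trend of the libraries. Over 14 libraries, with the difference between groups left in both measures, Pearson's r was 0.716 (permutation p = 0.00431, adjusted over 7 members p = 0.0302) and Spearman's rho 0.613 (permutation p = 0.0217), and r was 0.525 without the 2 libraries farthest from the median trend. Within the groups r was 0.520 for IgG (exact permutation p = 0.215, n = 7) and 0.517 for anti-CD22 (exact permutation p = 0.233, n = 7), so the relation did not pass within either group. For Cd22 the pooled r was -0.131 (permutation p = 0.661). The highest levels of Cd33 were those of anti-CD22 replicates 1, 2 and 3, the libraries with the steepest trend. Without them the log2 fold change was 0.09 (limma adjusted p = 0.972) against 0.17 (SE 0.05) with them. Leaving out the highest libraries of a group lowers its mean whatever the trend does, and these were chosen after seeing the data. The part of the trend in the difference was therefore not tested by this step. Removing the length and GC trends together gave 0.01 with the longest Cd33 transcript of 5728 bases and 0.20 (adjusted p = 0.280) with the transcript of 1962 bases, and the table does not say which of them the reads came from.

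**Figure D4:**
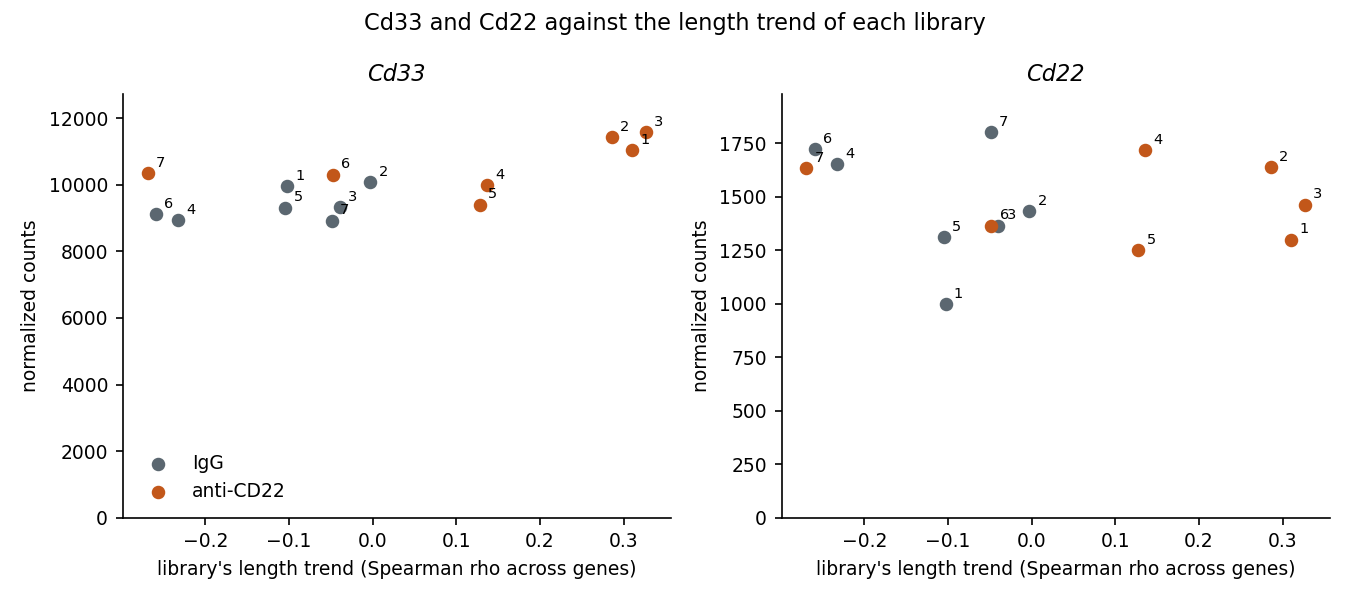
Normalized counts of Cd33 (left) and Cd22 (right) against the length trend of each library, the Spearman rho across genes between transcript length and relative level; points are libraries, numbered by replicate, with IgG in grey and anti-CD22 in orange. Cd33 is highest in the 3 anti-CD22 libraries with a rho of 0.286 to 0.327, while Cd22 shows no such order.

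Siglech, a receptor that marks microglia among brain cells and pairs with Dap12, had nearly the same mean in both groups, at 30888 ± 3752 and 30887 ± 1123 normalized counts (SD, n = 7 each). The IgG libraries ran from 26223 over a median of 29175 to 35714, and the anti-CD22 libraries from 29248 over 31018 to 32451. All anti-CD22 libraries lay inside the IgG range, with 4 IgG libraries below them and 3 above. The coefficient of variation was 12.1% with IgG and 3.64% with anti-CD22, a difference in spread that was not tested. The log2 fold change was 0.01 (SE 0.06, adjusted p = 0.973), with a 95% interval from -0.13 to 0.14. Plasmacytoid dendritic cells also make Siglech, and their markers Klk1, Ly6d and Spib were at 0 in all 14 libraries. The other markers of the 5, Pacsin1 and Ccr9, were present, with means of 77.7 and 6.40 normalized counts, and the 5 summed to between 22.3 and 144 in a library. Their part in the level of Siglech was not tested.

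Siglec1, also called CD169, was the least abundant and the most uneven member. It ran from 0 over a median of 33.6 to 65.0 normalized counts with IgG and from 0 over 40.1 to 126 with anti-CD22. IgG replicate 3 and anti-CD22 replicate 7 were at 0, and anti-CD22 replicates 1 and 3, at 126 and 89.8, lay above every IgG library. The mean was higher with anti-CD22, 45.2 ± 47.0 against 33.4 ± 23.9 (SD, n = 7 each), while the log2 fold change was -0.04 (SE 1.04, adjusted p = 0.992), since the logarithm weights the libraries near 0. The 95% interval of the fold ran from 0.215 to 4.41. Recovered reads numbered from 0 to 138 per library, and the coefficient of variation was 71.5% with IgG and 104% with anti-CD22, against 16.7% from counting alone. Within the anti-CD22 group the r of Siglec1 with the length trend was 0.855 (exact permutation p = 0.0131, n = 7). That p was not adjusted for the 7 members compared in each of the 2 groups. Within IgG r was -0.436 (exact permutation p = 0.351, n = 7), and over all 14 libraries the adjusted p was 0.633. Without anti-CD22 replicates 1, 2 and 3 the log2 fold change was -1.51 (adjusted p = 0.991). Those libraries were chosen after seeing the data and hold the highest Siglec1 values, so leaving them out lowers the estimate whatever the trend does.

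Macrophages at the borders of the brain make Siglec1, and markers of these cells were present. The 10 markers, among them Mrc1, Cd163 and F13a1, summed to between 131 and 1838 normalized counts with IgG (median 512) and to between 297 and 2623 with anti-CD22 (median 1096). The markers and Siglec1 were high together in anti-CD22 replicate 1 (1701 and 126), anti-CD22 replicate 3 (1940 and 89.8) and IgG replicate 2 (1838 and 65.0). They parted in anti-CD22 replicate 2, which had the highest marker sum of all 14 libraries (2623) and 40.6 for Siglec1. They also parted in anti-CD22 replicate 7 (1096 and 0), IgG replicate 1 (1493 and 23.6), IgG replicate 7 (1320 and 9.66) and IgG replicate 6 (131 and 54.8). The part of these markers in the level of Siglec1 was not tested.

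**Figure D5:**
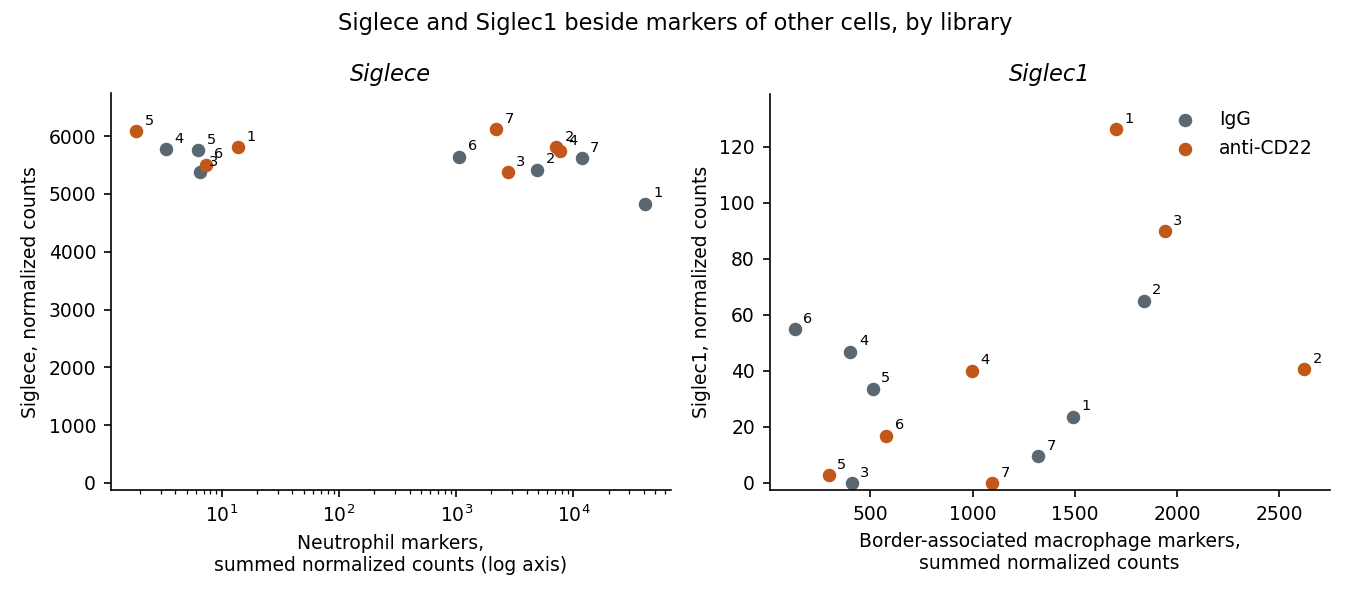
Normalized counts of Siglece against summed neutrophil markers (left, log axis) and of Siglec1 against summed border-associated macrophage markers (right), 1 point per library, numbered by replicate, with IgG in grey and anti-CD22 in orange. IgG replicate 1 has the highest neutrophil sum, 41182, and the lowest Siglece, 4831, and the 3 libraries with the most Siglec1 have macrophage sums of 1701, 1940 and 1838, while the highest sum, 2623, goes with a Siglec1 of 40.6.

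No pair of members was shown to rise and fall together over the libraries. Of 21 pairs compared on log2 values with group means removed, none had an adjusted p under 0.05, the lowest being 0.290 (permutation tests with 100000 resamples, Benjamini-Hochberg over the pairs, n = 14). Cd22 and Siglece had an r of 0.547 (permutation p = 0.0436) and a rho of 0.266 (permutation p = 0.358), and r was 0.142 without the 2 libraries farthest from the median of Cd22. That relation rests on those libraries. Cd33 and Siglece were opposite in sign, with an r of -0.585 (permutation p = 0.0274) and a rho of -0.547 (permutation p = 0.0468). Within groups r was -0.718 for IgG (exact permutation p = 0.0554) and -0.536 for anti-CD22 (exact permutation p = 0.219). It was -0.433 without the 2 libraries farthest from the median of Cd33. For Siglech and Siglec1 r was -0.565 (permutation p = 0.0364). It was -0.665 within IgG (exact permutation p = 0.0818) and -0.703 within anti-CD22 (exact permutation p = 0.0764). Without the 2 libraries farthest from the median of Siglech it was -0.365. Siglecf and Siglecg, neighbours on chromosome 7, had an r of 0.257 (permutation p = 0.376) and a rho of 0.437 (permutation p = 0.121). Here r rose to 0.598 without the 2 libraries farthest from the median of Siglecf.

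The genes with the most similar pattern to a member are described by Pearson's r over the 14 libraries, with group means removed and with no test, since they were picked as the highest of all genes tested. For Cd22 these were the splicing helicase gene Dhx8 (r 0.833), Adam3 (0.829) and Rn4.5s (0.820), which fell to 0.691, 0.596 and 0.575 without the 2 libraries farthest from its median. Cd33 had the closest partner of the set, Rab11a (0.940, or 0.941 without the 2 libraries farthest from the median of Cd33), a GTPase of recycling endosomes, before Wdr44 (0.915) and Mtpn (0.887). For Siglece they were Zbtb21 (0.914), the autophagy gene Atg9a (0.908) and the acetylcholinesterase gene Ache (0.893). These fell to 0.752, 0.723 and 0.687 without the 2 libraries farthest from the median of Siglece. Siglech was closest to Nfatc2ip (0.880), the nutrient-sensing GTPase gene Rraga (0.853) and Fcgr2b (0.844), the inhibitory Fc receptor. Without the 2 libraries farthest from its median these were 0.808, 0.705 and 0.751. Siglec1 was closest to the ubiquitin protease gene Usp14 (0.907), Siglecf to the importin gene Ipo13 (0.900) and Siglecg to the fucosyltransferase gene Pofut2 (0.875). Without the 2 libraries farthest from each member's median these were 0.822, 0.699 and 0.837. Rn4.5s and Nfatc2ip were low, with means of 16.1 and 32.2 normalized counts.

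Regulatory sequence was examined at the start sites, where RefSeq (GRCm38.p6) gave 7 promoters of 300 bases for 6 of the 7 genes. The letters GAGGAAG, which hold the core that PU.1 and other ETS factors bind, were searched on both strands (CTTCCTC on the other). They occurred in 4 of the 7 promoters, those of Cd33, Siglece, Siglecf and 1 of the 2 of Siglecg, and in 13.6% of all 32851 promoters. The promoters of the 3 members with the highest levels are printed below, 5′ to 3′ on the gene's strand from 250 bases before to 50 after the start site, with the matched letters in capitals. They differ in the number of matches, with 2 in Siglece, 1 in Cd33 and 0 in Siglech, which had the highest level of the 3.

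Siglech, chr7:55767934-55768233, plus strand: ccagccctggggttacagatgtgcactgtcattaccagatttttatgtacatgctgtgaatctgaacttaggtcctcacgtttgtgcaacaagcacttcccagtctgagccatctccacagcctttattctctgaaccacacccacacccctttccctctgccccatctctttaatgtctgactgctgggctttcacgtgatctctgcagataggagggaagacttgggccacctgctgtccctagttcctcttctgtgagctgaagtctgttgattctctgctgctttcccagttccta
Siglece, chr7:43660112-43660411, minus strand: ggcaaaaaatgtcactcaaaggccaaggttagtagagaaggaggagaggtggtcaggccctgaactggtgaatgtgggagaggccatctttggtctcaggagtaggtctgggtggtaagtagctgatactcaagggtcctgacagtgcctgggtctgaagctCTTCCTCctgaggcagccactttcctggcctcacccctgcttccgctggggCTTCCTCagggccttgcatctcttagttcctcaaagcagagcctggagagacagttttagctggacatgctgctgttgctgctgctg
Cd33, chr7:43533122-43533421, minus strand: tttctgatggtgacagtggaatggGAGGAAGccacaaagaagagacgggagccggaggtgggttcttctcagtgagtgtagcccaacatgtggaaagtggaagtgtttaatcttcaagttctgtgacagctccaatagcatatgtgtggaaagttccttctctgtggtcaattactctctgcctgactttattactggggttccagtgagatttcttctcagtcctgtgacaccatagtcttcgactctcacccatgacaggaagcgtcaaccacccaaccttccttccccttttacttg

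The matches in Siglece began 88 and 37 bases before the start site and that in Cd33 226 bases before it. The Cd33 promoter, which ends at 43533421, lies inside the GENCODE gene model, which reaches 43544428 on the minus strand. Whether the reads of Cd33 came from this start site was not tested. The matches describe the letters only, and their number did not order these 3 genes by level. The composite element that ETS and IRF factors bind together was in 0 of the 7 promoters and in 2.72% of all.

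Genes that act with the Siglecs were taken from lists chosen by function. Of 19 partners in Siglec signalling (kinases, phosphatases and adaptors), all were tested, 8 were higher, 11 lower and 0 passed over all genes. Their median log2 fold change was -0.03, beside 0.00 for all genes tested, and 4 had an unadjusted p under 0.05 against the share of 12.8% given above. Socs3, a feedback inhibitor that can bind the tail of human CD33, ran from 1216 to 1868 normalized counts with IgG and from 838 to 1229 with anti-CD22, so the groups touched only at 1 end (log2 fold change -0.49, SE 0.11, adjusted p = 0.144). For the kinase gene Syk, whose product Dap12 recruits, the difference was 0.31 on the log2 scale (adjusted p = 0.289), for the kinase gene Btk 0.22 (adjusted p = 0.328) and for Tyrobp itself -0.18 (adjusted p = 0.374).

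Genes that make, move or remove sialic acid, the ligand side, gave a similar picture. Of 34 listed, 24 were tested, with 10 higher, 14 lower, 0 passing over all genes and a median log2 fold change of -0.03. Cmas, which activates sialic acid for transfer, averaged 2080 ± 167 normalized counts with IgG and 1708 ± 147 with anti-CD22 (SD, n = 7 each), or -0.28 on the log2 scale (SE 0.07, adjusted p = 0.195). The sialidase gene Neu1 had -0.16 (adjusted p = 0.328), the synthesis enzyme gene Gne 0.23 (adjusted p = 0.372) and the phosphatase gene Nanp -0.21 (adjusted p = 0.413). Of 18 genes that interferon induces, as it does Siglec1, 6 were higher, 12 lower and 0 passed, with a median of -0.11. Ifit2, with the smallest p of these, stood at 0.41 (adjusted p = 0.281), opposite to Ifi27l2a at -0.50, Usp18 at -0.32 and Xaf1 at -0.31.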

How the data were processed

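RNA sequencing libraries of sorted microglia were compared, 7 with IgG and 7 with anti-CD22, grouped by sample title. Per the submitters' processing notes, bcl2fastq, STAR and DESeq2 were used with mm10 (gene annotation and versions: not stated in the sources at hand). The deposited values are a signal, the authors' counts per gene divided by 1 size factor per library. Of 24421 entries, 27 with names turned into dates were left out.

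The test was limma 3.58.1 (R 4.3.3) on log2 values with a pseudocount of 1 added to each normalized count, keeping genes whose mean reached 10, with a mean-variance trend and two-sided p-values adjusted by Benjamini-Hochberg over 11646 genes. Values were whole multiples of 1 step within 0.1 reads, in 100% of cases, so reads were recovered for 13 libraries and tested with edgeR 4.0.16 and DESeq2 1.42.0. Anti-CD22 replicate 3, whose step of 1.01 is close to 1, stayed out of those tests, though its values were whole multiples too. Intervals of folds come from the limma fit. Lengths, GC content (known for 96.4% of tested genes) and positions came from GENCODE vM21, and natural splines on both, fitted library by library, took the trend out. On simulated counts of 11646 genes in this design, the test recovered 52 of 100 at a 1.5-fold change, 77 of 100 at a 2-fold change, and made 7 false calls. Genes were simulated independently, so a length or GC trend shared across genes is not covered by these numbers.

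Named were the 7 members, the other family genes Mag and Siglec15, up to 4 genes of each list by smallest p, and the 3 genes most like each member (predicted genes passed over). Members, lists and markers were chosen with earlier results of these data known. Some marker genes are not reported here. Figures used Python 3.11.15 and matplotlib 3.10.9.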

Additional observations from a re-analysis of the deposited data

Results flagged for a closer look

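Siglece in IgG replicate 1, at 4831 normalized counts, stood apart from the other IgG libraries, the nearest of which had 5382. The gap was 0.587 of the whole range of the group, above the limit of 0.568 for 7 samples. It was the 1 such case among 14 groups of 7 (7 genes in 2 groups). Chance passes this limit in about 1 in 20 groups, so 1 case among 14 is close to what chance alone gives. The same library had the lowest Cd22 (998) and Siglecf (1185) of all 14, and the highest sums of neutrophil markers (41182 normalized counts) and monocyte markers (9460). Microglia markers summed to 1895280 in it, the lowest of the 14. The part of these markers in the low Siglec values was not tested. Without this library the log2 fold change of Siglece was 0.05 (adjusted p = 0.725) by limma, against 0.08 with it.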

How the results depend on the processing

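None of the 7 Siglec genes passed an adjusted p of 0.05 under any of 13 alternative settings or 14 fits without 1 library each, except that DESeq2 gave Siglec1 and Siglecg no adjusted p. Cd33, Siglece and Siglecf stayed above 0 and Siglecg below 0 in all 27. Cd22 turned to -0.021 with the length and GC trend removed by the transcript with the longest coding sequence. Siglec1 turned to 0.082 with a pseudocount of 10, 0.19 by edgeR and 0.18 by DESeq2. Without 1 library the log2 fold change ran from -0.063 to 0.079 for Cd22, from -0.030 to 0.045 for Siglech and from -0.76 to 0.68 for Siglec1. It ran from 0.15 to 0.20 for Cd33, from 0.045 to 0.093 for Siglece, from 0.026 to 0.14 for Siglecf and from -0.33 to -0.14 for Siglecg.

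The count of 1 gene past the threshold over all genes was 32 by DESeq2 and from 0 to 43 without 1 library, 43 being the count without anti-CD22 replicate 7. It was 0 by edgeR (1027 at an unadjusted p under 0.05), by the exact permutation test of each gene (1358), with the trend removed by either length (1002 and 991) and without anti-CD22 replicates 1, 2 and 3 (581). The replicate numbers carry no stated pairing: same-numbered libraries correlated from -0.145 to 0.160, and 2 of 7 matched best with their own number. With the replicate block the count was 2 and Cd33 had an adjusted p of 0.180. Trend removal by the longest coding sequence, leaving out those 3 libraries and the second length for levels were chosen after seeing the data. Depth limits Siglec1 most, where counting alone gives a coefficient of variation of 16.7% at its mean reads, against 0.561% for Siglech.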

Other observations

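The table holds 2 further genes of the mouse Siglec family. Siglec15 was at 0 in all 14 libraries. Mag, the Siglec of myelin, was not: it ran from 711 over a median of 835 to 1141 normalized counts with IgG and from 695 over 873 to 943 with anti-CD22 (log2 fold change -0.10, adjusted p = 0.731 by limma), with no separation of the groups. Other oligodendrocyte genes did not share this level. Mog, Mobp and Cldn11 averaged 4.72, 10.1 and 0.151 normalized counts, while Mbp and Cnp averaged 974 and 3761.

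Mag lies next to Cd22 on chromosome 7 (30899176 to 30914873, GRCm38), on the same minus strand and upstream of it, with 18833 bases between the 2 gene models. Whether the reads counted for Mag came from the Mag transcript or from other transcription at this locus was not tested, since the table gives 1 value per gene.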
